A study of Mus musculus with 20 samples.

Results

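Dbp, Tef and Hlf, their counterpart Nfil3, the REV-ERB receptors Nr1d1 and Nr1d2, and the repressors Ciart, Bhlhe40 and Bhlhe41 are factors through which the circadian clock acts on other genes. These 9 genes were picked by name, and all 9 were found among the 15956 genes of the count table, with 1 row each. Heart tissue of the left ventricle was sequenced from 20 male mice, 5 on each of the diets called NP, LP, HF and HF + LP. NP mice ate a control diet of normal protein content, LP mice a diet with less casein, HF mice a high-fat diet with the casein content of the NP diet, and HF + LP mice a high-fat diet with the casein content of the LP diet. The labels name no drug, transgene or deletion for any group, and the strain is not given in the sources used here. Every mouse is labelled as 18 months old, whereas the study's methods place collection at a younger age, after months of diet. The same methods state that mice kept under a light-dark cycle were killed in the middle of the light phase, in the fed state. The hour for each mouse is not given in the sources used here, so a lower level and a shifted phase of a daily rhythm cannot be told apart.

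In the clock, CLOCK or its relative NPAS2 pairs with BMAL1 (encoded by Arntl) on E-box sequences and drives the Per and Cry genes, whose proteins then repress that pair. The same activators drive Dbp, the REV-ERB genes and Ciart. REV-ERB receptors repress Arntl and Nfil3 through an element called the RORE, where ROR receptors activate. DBP, TEF and HLF activate genes with a D-box, and NFIL3 (E4BP4) represses at the same element. Nfil3 normally peaks when Dbp is low. In heart muscle these factors are known for daily rhythms in metabolic and ion channel genes.

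Total counts per library lay between 12559607 and 23331907 (median 16637184.5), and transcripts of mitochondrial DNA took 35.4% to 47.2% of them. A normalized count is the number of reads of a gene in a library divided by that library's effective size relative to the geometric mean of all 20. The 7 cardiomyocyte markers summed to 31644 to 44506 CPM (counts scaled to the library size) in every library, and none of the markers checked was at 0 in all libraries. The 3 atrial markers (Myl7, Myl4, Sln) spread far more, from 3.48 CPM in LP mouse 5 to 4462 CPM in LP mouse 13. LP mouse 13 also had the highest sum of the 4 adipocyte markers, 204 CPM, where the other 19 libraries were lower. Each mouse is called by its diet and the animal number that the labels give it. The label of LP mouse 5 adds that it is a second sample, and it was taken as a mouse of its own. A further number from 1 to 3 stands in the library names, with no meaning given. Fewer cells of a type and less RNA per cell cannot be told apart in such bulk tissue, and mice of a group may have shared a cage.

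Sequence near the transcription start was available for 8 of the 9 genes, in RefSeq windows on GRCm38.p6 from 250 bases before the start to 50 after it, with 2 windows for Tef. They were searched on both strands for the E-box CACGTG, the D-box TTATGTAA or TTACGTAA, and the RORE ANTAGGTCA, and the stretches that held a match are shown because these are the elements through which the clock genes of this report are known to act on each other. Capitals mark the match, and each stretch is written 5′ to 3′ on the strand of its gene.
Tef, first start, chr15:81802534-81802563, plus strand: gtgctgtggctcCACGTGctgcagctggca
Tef, second start, chr15:81811264-81811293, plus strand: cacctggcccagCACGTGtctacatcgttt
Ciart, chr3:95882255-95882356, minus strand: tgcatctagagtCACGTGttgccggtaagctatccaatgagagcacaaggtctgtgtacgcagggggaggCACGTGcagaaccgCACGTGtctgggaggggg
Bhlhe41, chr6:145865556-145865585, minus strand: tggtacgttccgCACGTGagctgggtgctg
Nfil3, chr13:52981031-52981063, minus strand: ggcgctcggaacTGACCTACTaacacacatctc
The Ciart window held 3 E-boxes, beginning 116, 58 and 44 bases before the start. Those of Tef began 127 and 138 bases before the respective starts, and that of Bhlhe41 began 153 bases before. Nfil3 had the only RORE, on the opposite strand, 12 bases before its start. Of all 32851 windows of 300 bases, 7.15% held the E-box, 1.06% a D-box and 0.661% the RORE. The windows of Dbp, Hlf, Nr1d1 and Nr1d2 held none of these letters, which says nothing about sites elsewhere in those genes.

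Dbp, the clock-driven PAR bZIP activator (ENSMUSG00000059824, GRCm38 chromosome 7, 45705088 to 45710203, plus strand), was at similar levels in all NP mice and at very unlike levels among LP and HF + LP mice. In NP its normalized count was 1665, 2318, 1743, 1565 and 1987 in mice 3, 4, 5, 6 and 8. In LP it was 155 and 258 in mice 2 and 5, against 2844, 2142 and 1393 in mice 13, 15 and 20. The LP mice thus stood on both sides of the NP range. In HF it was 1224, 771, 472, 713 and 842 in mice 1 to 5, each below the lowest NP mouse. In HF + LP it was 1826 and 1818 in mice 1 and 2, within the NP range, and 221, 256 and 233 in mice 3, 4 and 5, below every HF mouse. Its mean was 1856 ± 302 over the NP mice, 1358 ± 1171 over LP, 804 ± 273 over HF and 871 ± 868 over HF + LP (SD, n = 5). Sphk2 overlaps Dbp on the other strand and is also in the counts, and the strand setting of the counting is not given in the sources used here.

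Tef, the related activator (ENSMUSG00000022389, chromosome 15, 81802421 to 81826863, plus strand), whose 2 windows each held an E-box, had the highest counts of the 9 genes, in 3′ reads whose number does not depend on transcript length. Its normalized count was 2837, 4291, 3405, 3914 and 3579 in NP mice 3, 4, 5, 6 and 8. The LP mice fell apart again, with 1309 and 1080.5 in mice 2 and 5 and 4363, 4479 and 2859.9 in mice 13, 15 and 20. HF mice 1 and 2 had 2961 and 3297, inside the NP range, and HF mice 3, 4 and 5 had 1349, 1880.3 and 1571. HF + LP mice 1 and 2 had 3009.6 and 3252, and mice 3, 4 and 5 had 1060.05, 1215 and 1479.8. The low values of HF and HF + LP thus came from the mice numbered 3 to 5 in each group, all of whose libraries carry the number 3.

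Hlf, the third PAR bZIP activator (ENSMUSG00000003949, chromosome 11, 90336536 to 90390895, minus strand), was at 747, 452, 593, 424 and 524 in NP mice 3, 4, 5, 6 and 8. It was at 199 and 189.9 in LP mice 2 and 5, and at 651, 534 and 404 in LP mice 13, 15 and 20. In HF, mice 1 and 2 had 497 and 409 and mice 3, 4 and 5 had 246, 229 and 237. In HF + LP, mice 1 and 2 had 546 and 353 and mice 3, 4 and 5 had 222, 194 and 192. The mice that were low for Tef were low for Hlf.

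**Figure D1:**
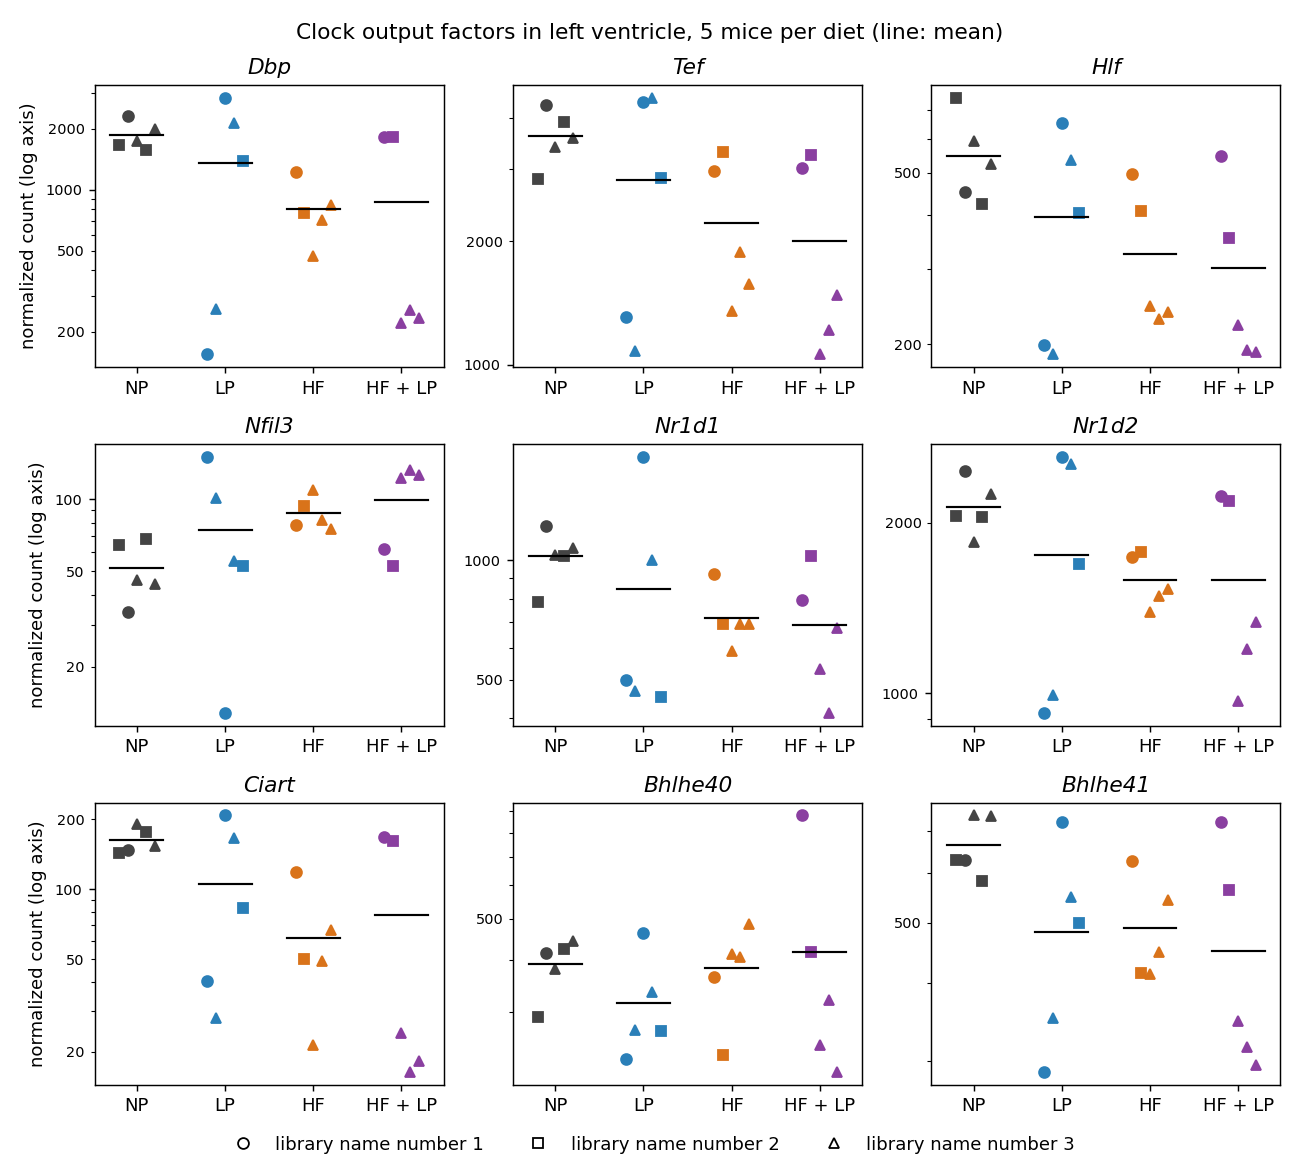
Normalized count (log axis) of the 9 clock output factors in each mouse, by diet group (5 mice per diet). Marker shapes give the number in the library name and black lines give group means. NP mice lie close together, whereas Dbp in LP runs from 155 to 2844 and HF + LP splits into 2 mice at 1818 and 1826 and 3 mice from 221 to 256 for Dbp.

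Nfil3, the repressor that competes with the PAR bZIP activators (ENSMUSG00000056749, chromosome 13, 52967209 to 52981073, minus strand), ran the other way. Its normalized count was 64.7, 33.9, 46.0, 68.5 and 44.2 in NP mice 3, 4, 5, 6 and 8, and 78.1, 94.1, 109, 82.2 and 75.4 in HF mice 1 to 5, so that every HF mouse was above every NP mouse. LP mice 2 and 5, the lowest for Dbp, had the highest LP values, 151 and 101. LP mouse 13, the highest for Dbp of all 20 mice, had the lowest Nfil3 of all, 12.8, and LP mice 15 and 20 had 55.5 and 52.5. HF + LP mice 3, 4 and 5 had 123, 132 and 126, against 62.2 and 52.6 in mice 1 and 2. The 5 mice with Dbp under 260 thus included the 4 highest for Nfil3.

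**Figure D2:**
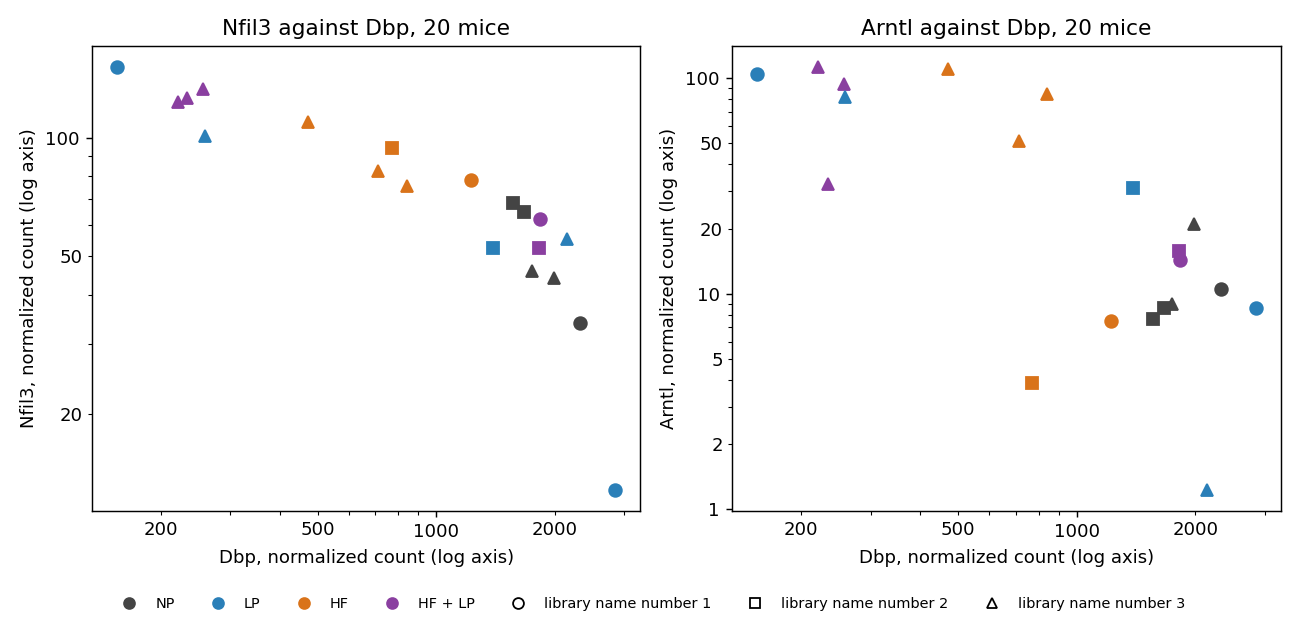
Nfil3 (left) and Arntl (right) against Dbp, in normalized counts on log axes, with 1 point per mouse, coloured by diet and shaped by the number in the library name. The mouse with the most Dbp, 2844, has the least Nfil3, 12.8, and the mouse with the least Dbp, 155, has the most Nfil3, 151.

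Nr1d1, which encodes REV-ERB alpha (ENSMUSG00000020889, chromosome 11, 98767932 to 98775333, minus strand), varied less than Dbp. It was at 786, 1223, 1029, 1026 and 1077 in NP mice 3, 4, 5, 6 and 8, and at 922, 689.5, 592, 690.2 and 693 in HF mice 1 to 5. A single HF mouse, mouse 1, reached into the NP range. In LP it was at 499 and 468 in mice 2 and 5, at 1825 in mouse 13, at 1000.4 in mouse 15 and at 452 in mouse 20. LP mouse 20 was thus the lowest LP mouse for Nr1d1, whereas it lay above LP mice 2 and 5 for Dbp and Tef, with Dbp below the lowest NP mouse and Tef within the NP range. HF + LP mice 1 to 5 had 795, 1023, 533, 413 and 673. Thra overlaps Nr1d1 on the other strand and is in the counts, so reads of both cannot be told apart if strand was not used.

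Nr1d2, which encodes REV-ERB beta (ENSMUSG00000021775, chromosome 14, 18204054 to 18239127, minus strand), had no overlapping gene. Its normalized count was 2055, 2476, 1851, 2049 and 2249 in NP mice 3, 4, 5, 6 and 8, and 1743, 1777, 1394, 1486 and 1529.96 in HF mice 1 to 5, again with every HF mouse below every NP mouse. LP mice 2 and 5 had 923 and 992, and LP mice 13, 15 and 20 had 2621, 2539 and 1694. HF + LP mice 1 and 2 had 2236 and 2190.3, above every HF mouse, and mice 3, 4 and 5 had 969, 1196 and 1337, below every HF mouse.

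Ciart (CHRONO), a repressor of the CLOCK and BMAL1 pair (ENSMUSG00000038550, chromosome 3, 95878503 to 95882251, minus strand), whose window held 3 E-boxes, was the least abundant of the 9 after Nfil3. It was at 144, 147, 190.4, 176 and 154 in NP mice 3, 4, 5, 6 and 8, and at 119, 50.3, 21.4, 49.3 and 67.1 in HF mice 1 to 5, with no overlap. LP mice 2 and 5 had 40.3 and 28.0, LP mouse 20 had 82.9, and LP mice 13 and 15 had 208 and 167. HF + LP mice 1 and 2 had 168 and 161, in the NP range, whereas mice 3, 4 and 5 had 24.1, 16.4 and 18.3. C920021L13Rik lies on the other strand and is in the counts.

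Bhlhe40 (DEC1, ENSMUSG00000030103, chromosome 6, 108660629 to 108666925, plus strand) and Bhlhe41 (DEC2, ENSMUSG00000030256, chromosome 6, 145858243 to 145865558, minus strand) encode repressors that bind E-boxes. Bhlhe41 was low in the same LP and HF + LP mice as Dbp, at a smaller scale. It was at 583 to 742 in NP and at 414 to 628 in HF, with overlap, unlike Dbp. LP mice 2 and 5 had 289 and 352, and LP mice 13, 15 and 20 had 726, 550 and 500. HF + LP mice 3 to 5 had 296 to 348, and mice 1 and 2 had 724 and 564. Bhlhe40 did not separate HF from NP, with 292 to 444 in NP and 238 to 487 in HF. Its highest value was 879, in HF + LP mouse 1, where the other HF + LP mice had 217 to 417. In LP, Bhlhe40 was at 233 to 464, lowest in mouse 2 and highest in mouse 13. Gm43909 overlaps Bhlhe41 on the other strand and is in the counts.

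By group mean, NP was the highest group for 7 of the 9 genes, the exceptions being Bhlhe40 and Nfil3. For Nfil3 the order was turned, with a mean of 51.5 ± 14.6 for NP, 74.5 ± 52.8 for LP, 87.8 ± 14 for HF and 99.2 ± 38.5 for HF + LP (SD, n = 5). In the order of means, the ranges of neighbouring groups overlapped for every gene. HF and HF + LP had almost equal means for Nr1d2, 1586 ± 167 and 1586 ± 588, with a larger SD in HF + LP.

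Several of the 9 genes spread widely between mice of a diet. Pooled over the diets, the SD of log2 CPM was 1.27 for Dbp, rank 66 from the top of 10100 genes with a mean normalized count over 50, and 1.1 for Ciart, rank 86. It was 0.75 for Nfil3, 0.68 for Tef, 0.60 for Hlf, 0.53 for Nr1d1, 0.49 for Bhlhe40, 0.46 for Nr1d2 and 0.42 for Bhlhe41, where the median over all these genes was 0.25. From 83.7% (Bhlhe41) to 99.3% (Dbp) of genes had a smaller SD. Among the core clock genes, Per2 ranked 79 with an SD of 1.15, and Per1 and Per3 had 0.83 and 0.79, whereas Cry1 had 0.20. The spread was not the same in each diet. The median SD over the 9 genes was 0.23 in NP, close to the 0.20 of all genes, and 0.38 in HF, 0.65 in HF + LP and 0.88 in LP, where all genes had 0.21, 0.23 and 0.28. For Dbp the highest mouse had 1.48 times the lowest in NP, 2.60 times in HF, 8.26 times in HF + LP and 18.4 times in LP. These SDs are given as descriptions, and the difference in spread between diets was not tested.

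**Figure D3:**
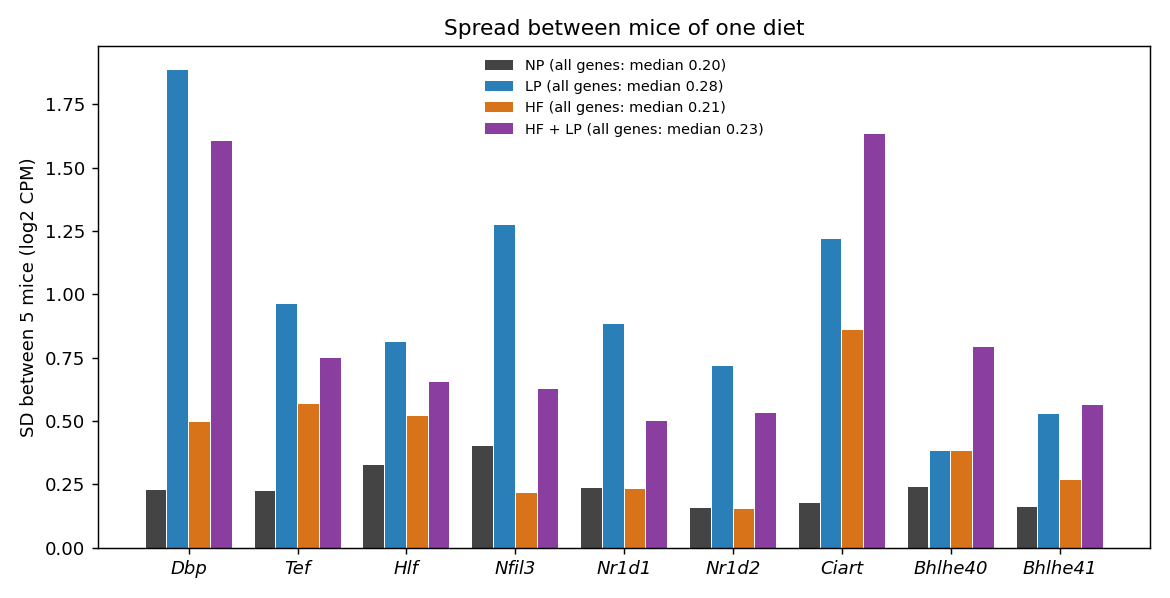
SD between the 5 mice of each diet, in log2 CPM, for the 9 genes. The legend gives the median SD of all genes with a mean normalized count over 50. Bars of LP and HF + LP are higher than those of NP for all 9 genes, up to 1.89 for Dbp in LP.

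The mice with the lowest Dbp did not share a level of atrial markers, but their endothelial markers summed higher than in the other mice of their diet. The 5 endothelial markers summed to 659 and 780 CPM in LP mice 2 and 5, against 518 to 544 CPM in the other LP mice. They summed to 634, 728 and 587 CPM in HF + LP mice 3, 4 and 5, against 480 and 574 CPM in mice 1 and 2. LP mice 2 and 5 also had the lowest LP sums of the fibroblast markers (701 and 841 CPM against 984 to 1287), the myeloid markers (218 and 197 against 277 to 504) and the red blood cell markers (4941 and 4962 against 6529 to 12270). HF + LP mice 3, 4 and 5 did not all lie below mice 1 and 2 for any of these lists, with fibroblast sums of 962, 883 and 681 CPM against 748 and 760, myeloid sums of 264, 312 and 264 against 193 and 308, and red blood cell sums of 14813, 5629 and 6510 against 3324 and 7913. The part of these markers in the clock gene values was not tested. LP mice 2 and 5 and HF + LP mice 3, 4 and 5 had atrial sums of 74.1, 3.48, 1771, 326 and 11.1 CPM, and HF + LP mice 1 and 2, with high Dbp, had 5.85 and 6.11 CPM. Their cardiomyocyte sums were 39970 and 43168 CPM in LP, the highest of that diet, and 31644, 39776 and 39390 CPM in HF + LP. LP mouse 13 was the highest for Dbp and Nr1d1 and the lowest for Nfil3. Of all libraries it had the most atrial, adipocyte, fibroblast, smooth muscle and myeloid marker RNA, with 1287, 332 and 504 CPM for the last 3. Its total count was also the largest, and the part of this was not tested either.

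To ask whether high dietary fat changed the clock output factors, HF was compared to NP with all 4 groups in an edgeR quasi-likelihood fit. None of the 9 genes was called at the study's thresholds, which ask for an adjusted p below 0.01 together with a base mean (the mean normalized count over 20 mice) above 50, where 0.264% of the 13991 genes tested were called. Of the 9, 8 were lower in HF and 1, Nfil3, was higher, with a median log2 fold change of −0.52, against −0.0011 over all genes tested. Dbp had a log2 fold change of −1.21 (standard error 0.67, edgeR adjusted p = 0.478). Ciart was at −1.41 (0.62, adjusted p = 0.326) and Hlf at −0.76 (0.35, adjusted p = 0.354), and these were the 2 members with an unadjusted p under 0.05, lower in HF, as were 7.91% of all genes. No member was higher at that limit, as were 5.17% of all genes. Tef was at −0.71 (0.38), Nr1d1 at −0.52 (0.32), Nr1d2 at −0.43 (0.26), Bhlhe41 at −0.44 (0.24) and Nfil3 at 0.76 (0.41), with adjusted p between 0.466 and 0.538. Bhlhe40, counted among the 8 lower, was at −0.04 (0.30), and its sign turned with only HF and NP in the fit and with some mice left out. Transcripts of mitochondrial DNA took 38.1% to 39.8% of the counts in HF and 41.3% to 47.1% in NP, with no overlap. The sums of the 8 lists of cell type markers each overlapped between the groups. The endothelial sum was 574 to 702 CPM in HF and 501 to 576 CPM in NP, with 0 of 5 genes at an unadjusted p under 0.05. The myeloid sum was 314 to 412 CPM in HF and 208 to 325 CPM in NP, with 3 of 5 genes higher at that limit, among them Lyz2 (log2 fold change 0.52) and Cd68 (0.60). The smooth muscle sum was 53.4 to 65.2 CPM in HF and 64.9 to 158 CPM in NP, with 3 of 4 genes lower, among them Myh11 (−1.39, edgeR adjusted p = 0.0341). Of the cardiomyocyte markers, 3 of 7 were lower, among them Myh6 (−0.70, adjusted p = 0.0124). None of these markers was called, and the part of the markers and of the mitochondrial share in the difference of the clock genes was not tested.

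In this fit the spread of the LP and HF + LP mice enters the error of HF against NP. With only the HF and NP libraries in the fit, the fold changes were almost the same and the standard errors smaller. Dbp was at −1.17 (standard error 0.21, edgeR adjusted p = 0.0149), Ciart at −1.38 (0.32, adjusted p = 0.0445), Nfil3 at 0.80 (0.20, adjusted p = 0.0511) and Nr1d2 at −0.39 (0.10, adjusted p = 0.0581). None passed 0.01, and Dbp and Ciart passed 0.05, a threshold chosen for this fit after its values were seen. Unadjusted, 7 members were lower at p under 0.05, where 8.21% of the 13240 genes were, and 1 was higher, where 9.71% were. Values of HF and NP mice were fully apart for Dbp, Nr1d2 and Ciart, all lower in HF, as for 3.60% of genes, and for Nfil3, higher in HF, as for 2.07% of genes.

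**Figure D4:**
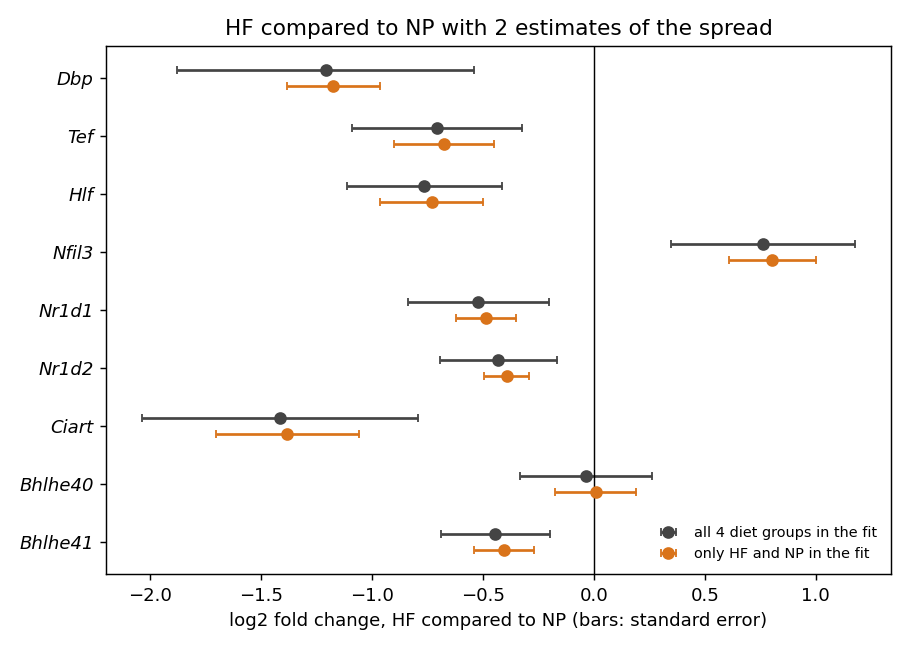
Log2 fold change of the 9 genes in HF compared to NP (x axis, points) with standard errors (bars), from the fit of all 4 diet groups (dark) and from the fit of the HF and NP libraries (orange). The points hardly move between the fits, whereas the standard error of Dbp shrinks from 0.67 to 0.21.

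Low dietary protein on the control fat content gave no call. In LP compared to NP 0 of the 9 genes were called, where 0% of all genes were, with 1012 genes at an unadjusted p under 0.05 by edgeR and 4 genes called by DESeq2. The fold changes again had 8 genes lower and Nfil3 higher, with a median of −0.35 on the log2 scale, and none passed. Dbp was at −0.44 (standard error 0.66), Ciart at −0.60 (0.60), Bhlhe41 at −0.45 (0.24) and Nfil3 at 0.50 (0.42), and the smallest edgeR adjusted p was 0.746. Single mice moved these values: Dbp was at −0.15 without LP mouse 2, −0.17 without LP mouse 5 and −0.92 without LP mouse 13, and Nfil3 at 0.086 without LP mouse 2, 0.35 without LP mouse 5 and 0.79 without LP mouse 13. Ciart was at −1.04 without LP mouse 13 and −0.36 without LP mouse 5. Nr1d1 was at −0.77 without LP mouse 13, −0.11 without LP mouse 5 or 20 and −0.13 without LP mouse 2. Leaving out LP mouse 2, 5, 13 or 15 also moved Tef (−0.58 to −0.14) and Nr1d2 (−0.48 to −0.11) by over 1.5 times, as did LP mouse 2, 5 or 13 for Hlf (−0.73 to −0.28) and LP mouse 13 for Bhlhe40 (to −0.49). Since LP mice 2 and 5 lay at one end and mice 13 and 15 at the other, the LP mean describes few of its mice. HF and LP were compared to the same NP mice, so the like signs of both comparisons are not independent. Of the cell type markers, Plin1 (3.58), Cidec (2.61) and Hbb-bs (0.75) were higher in LP at an unadjusted p under 0.05 and none was lower. The part of these markers was not tested.

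Protein restriction on the high-fat diet was tested by comparing HF + LP to HF. None of the 9 genes was called, where 0% of all genes were, with 677 genes at an unadjusted p under 0.05 and 16 called by DESeq2. Dbp was at 0.11 (standard error 0.66) and Ciart at 0.35 (0.63), and the edgeR adjusted p of all 9 genes was 0.999. With a mouse left out, Dbp ranged from −0.35 to 0.35 and Ciart from −0.16 to 0.72, so both signs turned. The small differences of means hide a split of the HF + LP mice. For Dbp, HF + LP mice 1 and 2 had 1826 and 1818 where HF mice 1 and 2 had 1224 and 771, whereas HF + LP mice 3 to 5 had 221 to 256 where HF mice 3 to 5 had 472 to 842. In both groups, mice 1 and 2 have the library numbers 1 and 2, and mice 3 to 5 have the library number 3. HF + LP lay below HF in number 3, without overlap, and above it in numbers 1 and 2 for 4 of the 9 genes (Dbp, Nr1d2, Bhlhe40 and Bhlhe41), as for 3.66% of all genes, and the reverse held for Nfil3, as for 4.49% of all genes.

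In HF + LP compared to LP, 0 of the 9 genes were called, where 0.100% of all genes were. Tef was at −0.50 (standard error 0.38, edgeR adjusted p = 0.534), the smallest adjusted p of the 9, and Dbp at −0.66 (0.66). With a mouse left out, Dbp ranged from −1.12, without HF + LP mouse 1 (nearly the same without mouse 2), to −0.17, without LP mouse 13, and was −0.39, −0.42 and −0.41 without HF + LP mouse 3, 4 and 5. Tef ranged from −0.75, without HF + LP mouse 2, to −0.28, without LP mouse 13 or 15, and was −0.33 without HF + LP mouse 3. The signs of Dbp and Tef turned with the animal number as a replicate block, which leaves LP mice 13, 15 and 20 out of this comparison. Of the cell type markers, Myh11 (−1.68, edgeR adjusted p = 0.0213), Cnn1, Tagln, Myh6, Adipoq, Plin1, Cidec and Lep were lower at an unadjusted p under 0.05. Cd68 (0.41) was higher, and the part of these markers was not tested. For the interaction of fat and protein content, 0 of the 9 and 0% of all genes were called, with 1003 genes at an unadjusted p under 0.05 and 1 gene called by DESeq2. Ciart was at 0.95 (standard error 0.87, edgeR adjusted p = 0.876) and Dbp at 0.55 (0.94). With a mouse left out, Dbp ranged from 0.088, without HF + LP mouse 1 (0.098 without mouse 2), to 1.03, without LP mouse 13, and was 0.26 and 0.29 without LP mouse 2 and 5. Ciart ranged from 0.45, without HF + LP mouse 1 (0.51 without mouse 2), to 1.39, without LP mouse 13. An adjusted p that misses the threshold does not show that the fat content acted alike at both protein contents.

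The number in the library name was tested as a factor beside diet. It gave 0 calls among the 9 genes and 0% among all genes, with 581 genes at an unadjusted p under 0.05 and 0 called by DESeq2. The smallest p among the 9 was 0.0575, for Hlf, and the edgeR adjusted p lay between 0.967 and 0.971. LP goes against the split seen in the high-fat groups, since its low mice, 2 and 5, have the numbers 1 and 3 and its high mice, 13 and 15, also have 1 and 3. Without LP mouse 2, all 9 genes had an unadjusted p under 0.05 for this number, as did 6.32% of all genes, and the smallest adjusted p was 0.756. Without LP mouse 15 this held for 6 of the 9 and 5.15% of all genes, with a smallest adjusted p of 0.889. In NP, the mean Dbp was 1865 for number 3 (2 mice), 1615 for number 2 (2 mice) and 2318 for number 1 (1 mouse).

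Most of the core clock genes named here, Cry1 excepted, were high or low in the same mice as the output factors. Arntl, which encodes BMAL1 and is repressed by REV-ERBs, was at 7.61 to 21.0 in NP. It was at 105 and 82.0 in LP mice 2 and 5 and at 1.23 to 31.1 in the other LP mice. In HF it was at 7.44 and 3.87 in mice 1 and 2 and at 111, 51.0 and 84.4 in mice 3 to 5, so HF was split for Arntl where it was not for Dbp. In HF + LP it was at 14.3 and 15.8 in mice 1 and 2 and at 113, 94.1 and 32.5 in mice 3 to 5. The low values of Arntl rest on few reads.

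Npas2 followed Arntl, with 4.32 to 11.0 in NP, 32.5 and 43.0 in LP mice 2 and 5, 20.3 to 28.2 in HF mice 3 to 5 and 19.3 to 33.9 in HF + LP mice 3 to 5. Clock, the partner of BMAL1, moved less, from 289 to 389.7 in NP to 603 and 674 in LP mice 2 and 5. The Per genes, which encode the repressing arm, went with Dbp. Per2 was at 267 to 356 in NP, 97.4 to 191 in HF, 45.5 and 59.0 in LP mice 2 and 5, and 31.4 to 48.2 in HF + LP mice 3 to 5. Per3 was at 777 to 882 in NP and 219 to 391 in HF, and Per1 at 453 to 767 in NP and 197 to 356 in HF. Cry1 stayed between 89.7 and 161 in all 20 mice, and Cry2 between 117 and 327.

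**Figure D5:**
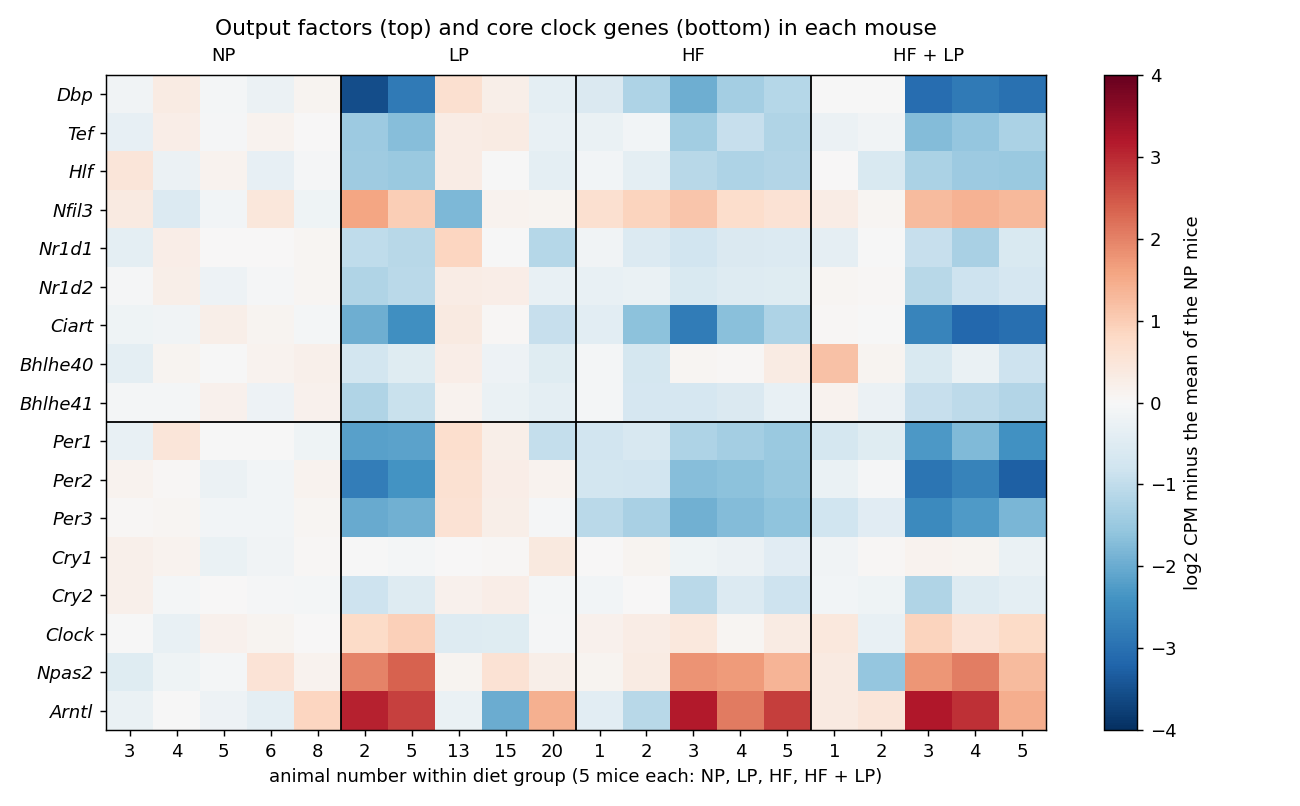
Log2 CPM of the 9 output factors (above the line) and of 8 core clock genes (below it) in each mouse, as the difference from the mean of the NP mice (colour scale from −4 to 4). LP mice 2 and 5, HF mice 3 to 5 and HF + LP mice 3 to 5 are blue for Dbp, Ciart and the Per genes and red for Nfil3, Npas2 and Arntl, and Cry1 stays pale throughout.

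Of 18 core clock genes, 17 were tested, Fbxl21 being too low, and none was called in any of the 6 comparisons. In HF compared to NP, Arntl (log2 fold change 2.21, standard error 0.90) and Npas2 (1.37, 0.64) were higher and Per1 (−1.08, 0.47) and Per3 (−1.52, 0.44) lower at an unadjusted p under 0.05, with edgeR adjusted p of 0.276, 0.365, 0.317 and 0.0900. These were 2 of 17 genes in each direction, where 5.17% of all genes were higher and 7.91% lower. HF and NP did not overlap for Per1, Per2 and Per3. In LP compared to NP, Npas2 (1.47, 0.64) and Arntl (1.98, 0.91) were higher at that limit, 2 of 17 where 5.02% of all genes were. In HF + LP compared to LP, Per3 (−1.09, 0.43) was lower, 1 of 17 where 9.66% of all genes were. The median over the 17 genes was −0.13 in HF compared to NP.

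Of 12 clock-controlled outputs, 11 were tested, Wee1 being too low, and none was called, with a median of −0.22 in HF compared to NP. Dgat2, an enzyme of triglyceride synthesis, was at −0.62 (0.23, adjusted p = 0.223), and Usp2, a deubiquitinase with a daily rhythm in many tissues, at −0.61 (0.28, adjusted p = 0.362) in HF compared to NP. Kcnip2, a subunit of the transient outward potassium channel, was at −0.46 (0.20, adjusted p = 0.260) and Por, the reductase of cytochrome P450 enzymes, at −0.45 (0.21, adjusted p = 0.300) in HF + LP compared to LP.

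Whether the 9 genes vary together within a diet was asked over all mice, with each gene centred on its diet mean. Of 36 pairs, 34 had an adjusted p under 0.05 (permutation within diet, 100000 permutations), but the LP and HF + LP mice lie in separate clusters, so coefficients over all mice are given only as ranges and for the genes most like 3 of the members. When each gene was centred on diet and library number, 0 pairs passed, although the coefficients were as large, from −0.96 to 0.96 over the pairs, against −0.86 to 0.96 without the number. That count was nearly fixed by the design, since mice alone in their diet and number are centred to 0. In LP, where the spread is widest, numbers 1 and 3 hold 2 mice each, and a swap only turns the sign. The test under this centring thus says little on the correlations. Among the 10 NP and HF mice, which form no such clusters for Dbp although HF is split for Tef, 0 of 36 pairs passed in an exact test of 14400 permutations within diet. In these mice, Dbp and Nfil3 had a Pearson r of −0.69 (exact permutation p = 0.00361, adjusted p = 0.1225) and a Spearman rho of −0.85 (exact permutation p = 0.00278, adjusted p = 0.100). Without HF mice 1 and 3, the farthest from the median for Dbp, r was −0.89. Dbp and Nr1d1 had r = 0.82 (exact permutation p = 0.00931, adjusted p = 0.1225, rho = 0.73 with p = 0.0207), or 0.65 without the same mice. Dbp and Nr1d2 had r = 0.73 (exact permutation p = 0.0136, adjusted p = 0.1225, rho = 0.73 with p = 0.0279), or 0.68 without them. For Dbp and Bhlhe41, r was 0.72 and fell to 0.34. The pairs of Dbp with Ciart, Tef and Hlf rested on those mice, since r was 0.85, 0.65 and 0.46 with them and −0.082, 0.18 and −0.17 without. With Bhlhe40, r was −0.0048, or 0.27 without them. The r was positive for 23 of the 28 pairs without Nfil3 and negative for 7 of the 8 pairs with it.

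The genes most like Dbp across the 20 mice, by Pearson r of diet-centred log2 CPM over 10099 other genes with a mean normalized count over 50, were Per2 (0.97), Per3 (0.97), Nr1d2 (0.96), Bhlhe41 (0.93) and Per1 (0.92). Clock (−0.88), Adam19 (−0.92), Slc25a36 (−0.89), 4632404M16Rik (−0.89) and Cdkn1a (−0.87) were the most unlike it. These coefficients rest on the separate LP and HF + LP clusters, and over the NP and HF mice alone they were 0.48 (Per1) to 0.85 (Per3) and −0.67 to −0.42 (Adam19). For Nfil3 the most like were Ppargc1b (0.93), a coactivator of mitochondrial genes, Snx16 (0.91), Gm43794 (0.89), Prdm16 (0.89) and Zfp637 (0.88), and the most unlike Coq10b (−0.90), Stard3 (−0.88), Slc25a35 (−0.88), Hnrnpd (−0.88) and Rbl2 (−0.88). Over the NP and HF mice alone these were 0.57 (Ppargc1b) to 0.80 (Zfp637) and −0.86 (Coq10b) to −0.45 (Slc25a35). For Nr1d1 no clock gene was among the most like, which were Trip6 (0.93), Ltbp4 (0.90), Steap3 (0.90), Pccb (0.90) and Fbxw8 (0.89). The most unlike Nr1d1 were Fip1l1 (−0.89), Fam199x (−0.88), Hnrnpul2 (−0.88), Zw10 (−0.87) and Helz (−0.87). Over the NP and HF mice alone these were 0.19 (Pccb) to 0.79 (Ltbp4) and −0.74 (Zw10) to −0.32 (Fam199x). They are given as a description, without a test, and all genes share the depth and RNA of their library.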

How the data were processed

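Left ventricular RNA of 20 mice was sequenced with QuantSeq 3′ mRNA libraries in 75 bp reads, which read the 3′ end of each transcript whatever its length. The authors aligned reads with BlueBee software and deposited raw counts per Ensembl gene, without normalization, and the labels' processing notes name GRCm38 and DESeq2 1.22.2. The counting program and annotation are not given in the sources used here. Every gene in the table had at least 60 counts over the libraries, and 15917 of 15956 genes had a symbol. Gene coordinates are those of GENCODE M21 and promoter windows those of RefSeq.

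The analysis used edgeR 4.0.16 in R 4.3.3 (filterByExpr by diet group, TMM, quasi-likelihood test, Benjamini-Hochberg adjustment over 13991 genes), with all 4 diets in the fit. Genes were called at the study's thresholds, an adjusted p below 0.01 with a mean normalized count above 50. Standard errors came from the F statistic, and log2 CPM used a prior count of 2. Groups follow the labels, in which only an animal number and a body weight mark separate mice, so p-values measure the spread between these samples. The script was tested on simulated data.

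Besides the 9 members, the 8 main core clock genes are always named, and other genes of the clock lists where called or among the 3 smallest p of a comparison. Members and lists were chosen with earlier results of these data known. Alternatives were RLE size factors, DESeq2 1.42.0, no filter, a minimum of 10 counts per library, a limit of 0.05 on the adjusted p, no minimum count, the animal number as a block, the library number as a covariate, only the 2 groups compared, and each mouse left out. For correlations they were RLE, a prior count of 0.5, Spearman rho, centring on the library number, and each mouse left out (20000 permutations). Same-numbered mice are different animals, and their deviations did not correlate in all pairs, so the numbers were not taken as pairs. Protein sequences and a Bhlhe40 promoter were not analysed here. A further list of genes is not reported here.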

Additional observations from a re-analysis of the deposited data

Results flagged for a closer look

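No mouse stood apart from the others of its diet by Dixon's criterion for 5 samples (0.71) in any of the 36 combinations of gene and diet, although chance would flag about 1 in 20.

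For 5 of the 9 genes, the difference between HF + LP and HF went in opposite directions by the number in the library name. Every HF + LP mouse with library number 3 lay on one side of every such HF mouse, and the HF + LP mice with numbers 1 and 2 lay on the other side of the HF mouse of the same number. Over all genes, 3.66% had HF + LP lower in number 3, like 4 of the members, and 4.49% had it higher, like Nfil3. On the log2 scale of mean normalized counts, the difference in number 3 was −1.51 for Dbp, −0.33 for Nr1d2, −0.73 for Bhlhe40, −0.55 for Bhlhe41 and 0.51 for Nfil3. In numbers 1 and 2 it was 0.87 for Dbp, 0.33 for Nr1d2, 1.1 for Bhlhe40, 0.31 for Bhlhe41 and −0.58 for Nfil3. This difference between the numbers was not tested, and what the number stands for is not given in the sources used here.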

How the results depend on the processing

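The count of members called was 0 of 9 in each of the 6 comparisons under every alternative fixed at the outset that was run for it, and with every mouse left out. The fit of only 2 groups was not run for the interaction or the library number, nor the library number as covariate for the latter. At an adjusted p under 0.05, combined with another choice after seeing the data, 2 members passed with only HF and NP in the fit, Dbp and Ciart. In HF compared to NP, the log2 fold changes of the 8 members other than Bhlhe40 kept their sign throughout, with Dbp between −1.86 and −1.07. Their size moved, with Ciart between −2.23 and −1.19, Hlf between −1.31 and −0.63 and Tef between −1.15 and −0.57. Bhlhe40 turned to 0.0085 with only the 2 groups in the fit, and ranged from −0.14 to 0.091 over the mice left out. In HF + LP compared to HF, Dbp turned to −0.20 with the library number as covariate, and with mice left out ranged from −0.35 to 0.35 and Ciart from −0.16 to 0.72, so their signs depend on single mice (HF 3 and HF + LP 1 or 2 for Dbp, HF + LP 1 or 2 for Ciart).

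The animal number as a replicate block turned Dbp to −0.38 and Ciart to −0.071 in HF + LP compared to HF, and Dbp to 1.57 and Tef to 0.74 in HF + LP compared to LP. NP mice 6 and 8 and LP mice 13, 15 and 20 share their number with no other mouse, so the block leaves them out of the diet differences. Of LP only mice 2 and 5 remain, the LP mice lowest for Tef and Hlf, and of NP only mice 3, 4 and 5. HF mice 3 to 5, which share those numbers, were the HF mice low for Tef and Hlf. No member was called under the block at 0.01. At 0.05, 2 members, Hlf and Tef, passed in HF compared to NP (smallest adjusted p 0.0120) and in LP compared to NP (0.0209), where 8 of 9 members had an unadjusted p under 0.05 in each, as did 12% and 5.75% of all genes. So did 8 in the interaction (4.20% of all genes) and 4 in HF + LP compared to LP (5.17%). Same-numbered mice share only a number: between HF and NP their deviations correlated at −0.48, 0.13 and −0.36, between HF + LP and HF from −0.56 to 0.48, between HF + LP and LP at −0.02 and 0.37, and for the 1 number that LP shares with NP at 0.21.

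When centred on diet and library number, 0 pairs passed, with r as large (−0.96 to 0.96), but few rearrangements in that setting can lower it. The 34 correlated pairs fell to 0 in the NP and HF mice alone, a choice made after seeing the data. They ranged from 32 to 36 with a mouse left out. Over all genes, 37 were called in HF compared to NP, 163 by DESeq2, 157 at an adjusted p under 0.05, 61 with only the 2 groups and 2 under the block, and 20 to 32 with a mouse left out. In HF + LP compared to LP, 14 were called, 84 by DESeq2, 45 at 0.05, 5 with the library number, 0 with only the 2 groups and 0 under the block, and 1 to 16 with a mouse left out. In HF + LP compared to HF, 0 to 1 were called with a mouse left out. The causes were not tested.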
